A study of Arabidopsis thaliana with 51 samples.

Results

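Flowers of the Arabidopsis thaliana alleles suvh1-2, hdp1-1 and hdp2-1 with the flower phenotype Wt and no construct in their labels were profiled by bisulfite sequencing of the region around AG. They are 3 of the 51 libraries of the table, 1 per allele, chosen by their set C titles. They were set beside the 3 Col libraries with the phenotype Wt and no construct of sets B and C, replicates A and B of set B and replicate C of set C. The study compared methylation of one region among lines with and without transgenes, such as ARE//AGe, across 3 sets of libraries. All 6 libraries were made from genomic DNA of young flowers, and each pooled flowers of 5 to 10 lines with 1 flower phenotype. A single protocol, which speaks of transformed plants, is given for every library of the study. That these flowers carried no construct therefore rests on the titles and the genotype field, and whether they came from lines that once carried one was not tested. Below, without construct means with none in these labels. The labels do not give the zygosity of the alleles or what the set letters stand for.

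In plants, cytosines followed by G (CpG) are kept methylated through cell division by MET1, CHG sites by CMT3, and CHH sites by the RNA-directed pathway and CMT2, where H stands for any base but G. SUVH1 binds methylated DNA and promotes transcription of genes near methylation. HDP1 and HDP2 derive from a domesticated Harbinger transposon and belong to a complex that helps bring in the demethylase ROS1. AG (AT4G18960) encodes a MADS-box protein that specifies stamens and carpels and is regulated through a long intron. In the RefSeq gene table, whose assembly is TAIR10.1, AG lies on chromosome 4 between AT4G18950 and AT4G18970.

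The table covered 17298 bp, positions 10374202 to 10391499 of TAIR10, and 4909 cytosines could be placed in all 6 libraries, 558 in CpG, 634 in CHG and 3717 in CHH context. Levels are methylation levels in percent without read counts, so the depth behind each level is unknown and a level of 0 may stand for an uncovered cytosine. Of the 4909 cytosines, 53 in suvh1-2, 31 in hdp1-1 and 115 in hdp2-1 had no level, against 292, 188 and 22 in Col replicates A, B and C. No annotation names the domains, so they were taken from the Col AGp//AGe sMf library of set A as runs of 100-bp windows at 10% or more. The AGp domain, 10380602 to 10382801, held 594 of the cytosines. The AGe domain, 10384302 to 10387101, held 738, and an upstream domain methylated mainly in CpG, 10377002 to 10377701, held 239. Whether a given cytosine is exonic or intronic was not determined.

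With no construct in its label, the suvh1-2 library was methylated across most of AGe and part of AGp in all 3 contexts. The hdp1-1 library, also without one in its label, showed the same domains at lower levels. The hdp2-1 library did not, and stayed near Col. Averaged over the whole table, CHH methylation was 3.66% in suvh1-2, 1.73% in hdp1-1 and 0.780% in hdp2-1, against 0.953%, 0.854% and 0.668% in the Col replicates. CHG methylation was 3.36%, 1.70% and 0.819% in suvh1-2, hdp1-1 and hdp2-1, against 0.785%, 0.884% and 0.516% in Col. The suvh1-2 and hdp1-1 values lay above all 3 Col libraries in both contexts, and the hdp2-1 values within their range. Each allele was a single library with no replicate check, and an exact permutation test of 1 library against 3 cannot go below p = 0.25, so no test was made and differences are read against the Col spread.

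In CpG context the alleles and Col were close over the whole table. The level was 9.50% in suvh1-2, 9.66% in hdp1-1 and 7.61% in hdp2-1, against 8.15%, 8.99% and 8.31% in Col. The first 2 were above the Col range by 0.508 and 0.663 percentage points, and hdp2-1 was below it by 0.541. Outside AGp and AGe the CHH levels of all 6 libraries lay between 0.460% and 0.732%, and the CHG levels between 0.469% and 0.748%. The difference in CHG and CHH between suvh1-2 or hdp1-1 and Col was thus found in AGp and AGe.

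**Figure D1:**
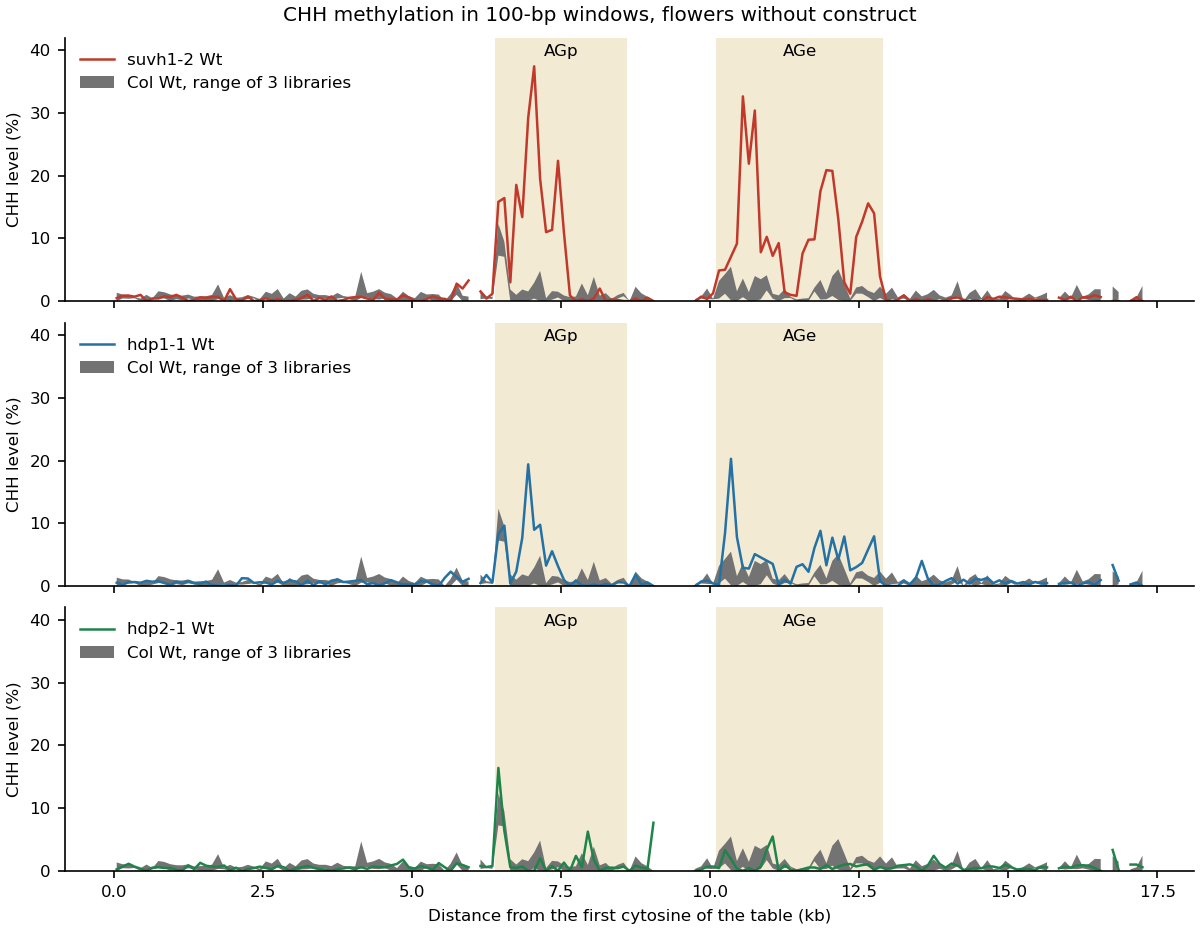
CHH methylation level in percent (vertical axis) in 100-bp windows along the region, by distance in kb from the first cytosine, with 1 panel per allele, the allele's library as a coloured line and the range of the 3 Col libraries in grey. Shading marks AGp and AGe, and windows with fewer than 3 CHH cytosines are blank. The suvh1-2 line reaches 37.4% in AGp and 32.7% in AGe, hdp1-1 reaches 19.4% and 20.3%, and hdp2-1 stays at or below 7.67% beyond the first 2 windows of AGp.

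In AGe, CHG was the context with the highest level in suvh1-2 and hdp1-1. The suvh1-2 library averaged 21.0% over 63 CHG cytosines, hdp1-1 8.79% and hdp2-1 0.607%, against 0.517%, 2.84% and 0.460% in the Col replicates. The suvh1-2 level stood 19.7 percentage points above the Col mean of 1.27% ± 1.36 (SD, n = 3), and hdp1-1 7.52 points above it. Both lay above every Col library, while hdp2-1 fell inside the Col range.

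CHH cytosines of AGe, 623 in number, averaged 11.2% in suvh1-2, 4.73% in hdp1-1 and 0.960% in hdp2-1, against 1.12%, 1.84% and 0.945% in Col. CpG cytosines of AGe, 52 in number, averaged 9.27% in suvh1-2, 4.48% in hdp1-1 and 0.135% in hdp2-1, against 0.549%, 0.538% and 0.385% in Col. In both contexts suvh1-2 and hdp1-1 lay above all Col libraries. The hdp2-1 CHH level fell within the Col range and its CpG level 0.25 points below the lowest Col library.

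The AGe methylation of suvh1-2 was spread over many cytosines at moderate levels. A level above 0 was found at 90.5% of CHG cytosines, 72.9% of CHH cytosines and 69.2% of CpG cytosines, and the median CHG level was 20.0%. In hdp1-1 those shares were 79.4%, 54.6% and 61.5%, with a median CHG level of 8.00%. In hdp2-1 they were 6.56%, 10.03% and 1.92%, against at most 30.6%, 20.5% and 9.62% in any Col library. No AGe cytosine in CHH or CpG context reached 50% in suvh1-2 or hdp1-1, so in these contexts the level did not come from a few fully methylated sites. Of the 63 CHG cytosines, 3 reached 50% in suvh1-2, the highest at 60%, and 1 in hdp1-1, at 50%.

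CHG cytosines directly followed by a CpG, that is CCG sites, were less methylated in AGe than the other CHG sites. In suvh1-2 the 6 CCG sites averaged 8.50% and the 57 others 22.3%. In hdp1-1 they averaged 5.67% and 9.12%, and in hdp2-1 0% and 0.673%. The number of CCG sites is small, and the same order was found in the ARE//AGe sMf library of suvh1-2, at 30.3% and 54.0%. In AGp the 5 CCG sites averaged 6.40%, 5.40% and 10% in suvh1-2, hdp1-1 and hdp2-1 and the other 50 sites 10.9%, 3.78% and 1.11%. There hdp1-1 and hdp2-1 had the opposite order, as did Col. The Col replicates had 7.6%, 3.8% and 4.6% at CCG sites and 0.974%, 1.19% and 0.66% at the others. By strand, the AGe CHG level of suvh1-2 was 22.1% on the plus strand and 19.9% on the minus strand. In hdp1-1 it was 7.74% and 9.81%, so both strands were methylated.

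**Figure D2:**
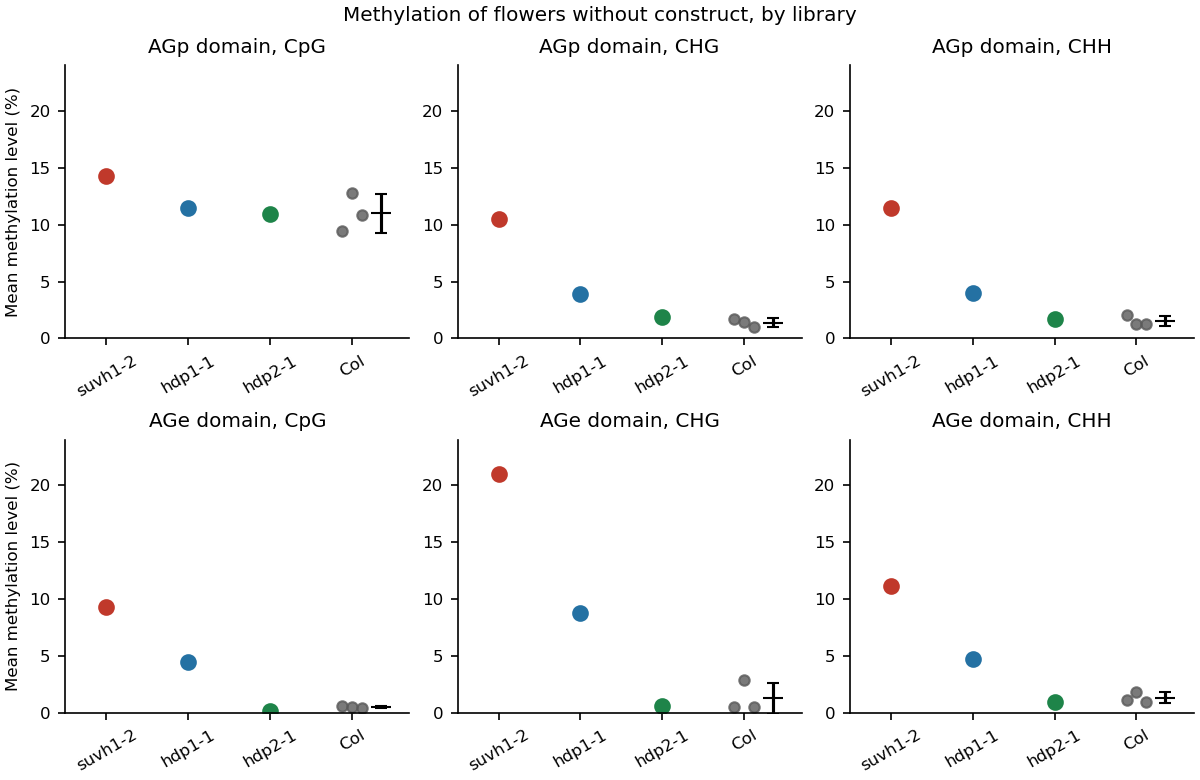
Mean methylation level in percent in the AGp domain (top) and the AGe domain (bottom) for CpG, CHG and CHH. Points are libraries, the alleles left of the 3 Col replicates, and the bar is the Col mean ± SD (n = 3). The suvh1-2 point is highest in all 6 panels, at 21.0% for AGe CHG, and hdp2-1 lies near Col.

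In AGp the suvh1-2 library averaged 10.5% in CHG and hdp1-1 3.93%, with 1.85% in hdp2-1, against 1.73%, 1.44% and 1.02% in Col. CHH levels were 11.5%, 4.01% and 1.74% in suvh1-2, hdp1-1 and hdp2-1, against 2.02%, 1.30% and 1.26% in Col. CpG levels were 14.3%, 11.5% and 10.96% in the alleles, against 9.40%, 12.8% and 10.8% in Col, so that only suvh1-2 lay above the Col range. Entries without a level were concentrated in this domain, with 53 of 594 in suvh1-2, 22 in hdp1-1 and 79 in hdp2-1, against 108, 104 and 15 in Col. Over the cytosines with a level in all 6 libraries, an alternative chosen after seeing the data, the difference of suvh1-2 from the Col mean over AGp was 6.36 percentage points in place of 9.50, and that of hdp1-1 1.40 in place of 2.37.

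AGp fell into 3 stretches, delimited after the values were seen. Its first 200 bp were methylated in all 6 libraries, with CpG at 39.2%, 47.7% and 44.0% in suvh1-2, hdp1-1 and hdp2-1, against 39.2%, 55.5% and 46.5% in Col. The CHH level there was 16.1%, 8.83% and 12.4% in the alleles, against 9.85%, 8.15% and 10.5% in Col. This stretch thus carried methylation in Col, and hdp1-1 did not exceed Col there. In CHH suvh1-2 and hdp2-1 lay above all Col libraries, as did suvh1-2 in CHG, at 10.5% against at most 7.5%.

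In the next 1000 bp, 10380802 to 10381801, Col was close to 0 and the alleles separated. CHG levels over 16 sites were 26.6% in suvh1-2, 8.88% in hdp1-1 and 0% in hdp2-1, against 1.5%, 0% and 1.0% in Col. CHH levels over 255 cytosines were 18.2%, 6.05% and 0.5% in suvh1-2, hdp1-1 and hdp2-1, against 1.45%, 0.599% and 0.351% in Col. CpG levels over 16 sites were 9.44%, 2.25% and 0.438%, against 0%, 0% and 0.375%. In all 3 contexts suvh1-2 and hdp1-1 lay above every Col library.

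The last 1000 bp of AGp were near 0 on average, with CHH at 0.306%, 0.320% and 0.886% in suvh1-2, hdp1-1 and hdp2-1, against 0.859%, 0.539% and 0.574% in Col. In hdp2-1 the CHH window 10382102 to 10382201 stood at 6.25%, against 0%, 0% and 0.933% in Col. The whole stretch was also low in the ARE//AGe libraries, at 1.01% in suvh1-2 sMf, 1.52% in hdp1-1 sMf and 1.76% in hdp2-1 sMf. In suvh1-2 and hdp1-1, with and without the construct, the higher CHH level thus lay before position 10381801.

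Counted by window, 21 of the 28 CHH windows of AGe were at 5% or more and above all Col libraries in suvh1-2, 10 in hdp1-1 and 1 in hdp2-1. In AGp the counts were 11, 6 and 2 of 22 windows. Elsewhere in the region they were 0, 0 and 1 of 106. The window elsewhere in hdp2-1 rests on 3 CHH cytosines.

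Cytosines at least 20 percentage points above the highest Col library numbered 158 of 4508 in suvh1-2, a background of 3.50% over all compared cytosines. In hdp1-1 they numbered 36 of 4508, a background of 0.799%, and in hdp2-1 6 of 4482, a background of 0.134%. Cytosines as far below the lowest Col library numbered 3 in suvh1-2, 7 in hdp1-1 and 9 in hdp2-1, or 0.0665%, 0.155% and 0.201%. All of them were CpG. A cytosine near 0 in Col cannot be lowered, so raised and lowered shares are not like measures. Of the 158 in suvh1-2, 152 lay in AGp or AGe, and 124 of the 158 were at 0 in all 3 Col libraries. In AGe 24 of 60 CHG cytosines were called, or 40%, and 72 of 570 CHH cytosines, or 12.6%, each above the background of 3.50%. With replicate C of set C as the sole Col library the count was 272 in suvh1-2, 65 in hdp1-1 and 15 in hdp2-1. Leaving out Col replicate A moved the hdp2-1 count to 11.

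Single sites showed how large the gap could be. In suvh1-2 the CHG cytosine at 10381101 in AGp was at 53%, against 0% in all 3 Col libraries. That at 10384772 in AGe was at 58%, against 0%, 10% and 0% in Col. The CHH cytosine at 10381247 in AGp was at 44%, against 0% in all of Col.

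In hdp1-1 the raised sites split into 2 kinds. In AGe 17 of 681 compared cytosines were called, or 2.50%, and in AGp 2 of 416, or 0.481%, beside the background of 0.799%. Of those in AGe 13 were CHH cytosines, 2.28% of the 570 compared, and the 5 named ones at 10384507 to 10384552 stood at 25%, against 0% in all Col libraries. A CHG cytosine in the same 100 bp, at 10384560, was at 50%, against 0% in Col. The window 10384502 to 10384601 held the CHH peak of hdp1-1, at 20.3%, where suvh1-2 had 7.08%. The 5 named sites had equal levels and depth is unknown, so whether a few shared reads gave this peak was not tested. The other 17 raised cytosines of hdp1-1 were all CpG and lay outside the domains. They were 3.97% of the 428 CpG cytosines compared there. The share over all 540 compared CpG cytosines, 3.15%, rests on the same 17, since no CpG cytosine was called within the domains. The 5 with the largest gaps all lay at 10388692 to 10388703, in a single stretch described below.

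The CHH window levels of suvh1-2 and hdp1-1 were correlated over AGp and hardly over AGe. Pearson's r between their window levels was 0.798 over the 22 windows of AGp and 0.0886 over the 28 of AGe, a description of windows that share base composition. The AGp windows include its last 1000 bp, at 0.306% in suvh1-2 and 0.320% in hdp1-1. How far the AGp value rests on the contrast between its methylated and unmethylated stretches was not tested, and the 2 values are not like measures. In AGp the window 10381102 to 10381201 was at 29.2% in suvh1-2 and 19.4% in hdp1-1, with 0% in hdp2-1, against 1.54%, 0% and 0.880% in Col. In AGe the window 10384702 to 10384801 was at 32.7% in suvh1-2 and 2.90% in hdp1-1, with 0% in hdp2-1, against 0.632%, 3.60% and 0.700% in Col. The hdp1-1 level lay inside the Col range in that second window and above it in the first.

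Each allele was also profiled with ARE//AGe and the phenotype sMf. Construct-bearing flowers differed among themselves, since the Col ARE//AGe Wt library of set C had an AGe CHG level of 5.59% and a CHH level of 2.95%, below those of suvh1-2 without construct. In suvh1-2 the AGe CHG level was 21.0% without construct and 51.7% with ARE//AGe, so the first was 40.6% of the second. The share was 42.4% for CHH and 25.5% for CpG. In hdp1-1 the AGe CHG level was 8.79% without and 58.0% with ARE//AGe, a share of 15.2%, with 16.2% for CHH and 9.53% for CpG. Against the rMf library of hdp1-1 with ARE//AGe the shares were 15.3%, 13.1% and 19.1% for CHG, CHH and CpG, and against that of hdp2-1 they were 1.2%, 3.15% and 0.572%. In hdp2-1 the AGe CHG level was 0.607% without and 57.8% with ARE//AGe. The share was 1.05%, with 2.79% for CHH and 0.460% for CpG. Shares are over cytosines with a level in both libraries, here 61 for CHG. Over all 63 AGe CHG cytosines hdp2-1 sMf had 58.7%. The 3 sMf libraries were thus alike in AGe CHG, between 51.7% and 58.7%, and their counterparts without construct were not.

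The profile of suvh1-2 without construct followed that of its ARE//AGe library, with r = 0.907 across the 22 CHH windows of AGp and 0.789 across the 28 of AGe. For hdp1-1 the values were 0.745 and 0.476, and for hdp2-1 -0.171 and -0.0386. These describe windows that share depth and base composition within a library, and are given without a test. Correlations with the ARE//AGe libraries of other alleles were not computed, so the match is not shown to be particular to an allele's own library. The AGp values include its last 1000 bp, which were low with and without the construct. Reads from a construct copy and from the endogenous locus cannot be told apart in the table, and whether construct-bearing DNA has a part in the levels of suvh1-2 and hdp1-1 was not tested.

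**Figure D3:**
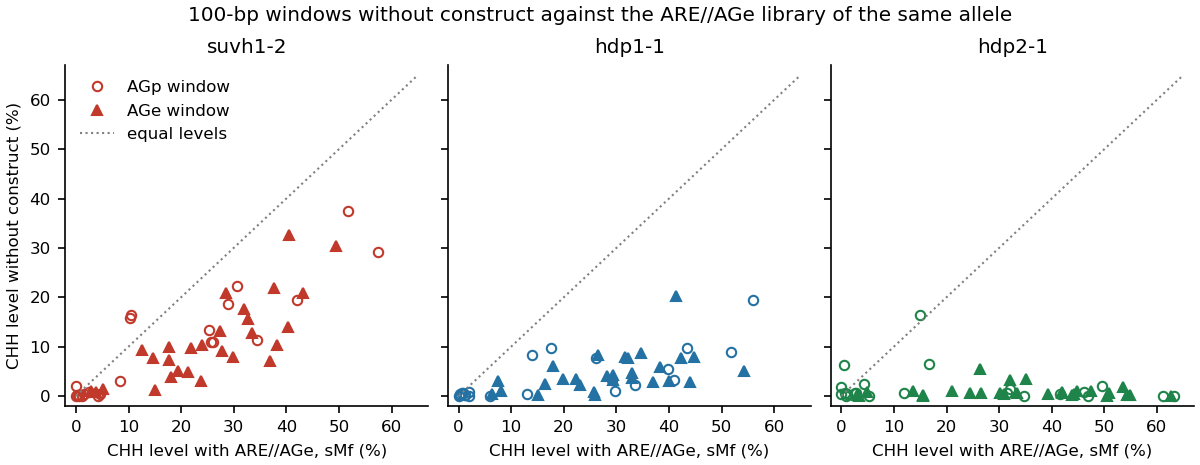
CHH level in percent of each 100-bp window without construct (vertical axis) against the ARE//AGe sMf library of the same allele (horizontal axis), for suvh1-2, hdp1-1 and hdp2-1. Open circles are AGp windows, triangles AGe windows, and the dotted line marks equal levels. Windows of suvh1-2 climb with the construct library (r = 0.907 in AGp and 0.789 in AGe), those of hdp1-1 climb less steeply, and most of those of hdp2-1 lie along the bottom.

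Among the 16 libraries of the study without a construct in their labels, suvh1-2 ranked highest in AGp and AGe for both CHG and CHH. The hdp1-1 library had rank 3 in AGp CHG, AGp CHH and AGe CHH and rank 2 in AGe CHG, and ddm1-1 Wt of set B was above it in the first 3, with 8.12%, 5.30% and 5.47%. The hdp2-1 library had rank 5 in AGp CHG and AGp CHH, rank 9 in AGe CHH and rank 12 in AGe CHG. All 3 alleles lie in the same block of columns of the table, apart from the Col libraries, so a difference between blocks cannot be told apart from one between allele and Col. Within their block suvh1-2 and hdp1-1 stood above hdp2-1 in AGe, at 21.0% and 8.79% against 0.607% for CHG.

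Averaged over sites, natural CpG methylation of the 3 alleles lay within the Col range, while single sites departed from it. The 36 CpG sites at 50% or more in both Col Wt libraries of set A, which are not among the 6 libraries averaged here, averaged 68.9% in suvh1-2, 73.4% in hdp1-1 and 68.0% in hdp2-1, against 67.8%, 77.5% and 69.0% in Col. At the 20 sites of the upstream domain the levels were 82.9%, 85.9% and 85.0% in suvh1-2, hdp1-1 and hdp2-1, against 85.1%, 86.7% and 82.7% in Col. These means also fell within the Col range, so methylation of AGp and AGe in suvh1-2 and hdp1-1 stood beside mean natural CpG levels inside that range.

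The 3 natural sites in AGp all lay in its first 200 bp and averaged 43.7%, 56.7% and 58.0% in suvh1-2, hdp1-1 and hdp2-1, against 38.0%, 62.0% and 51.0% in Col. The 13 sites elsewhere, at 10389751 to 10390641, averaged 53.2%, 58.0% and 44.2%, against 48.2%, 66.8% and 52.0%. The hdp2-1 value was the lowest of the 6, with a difference of -11.4 points from the Col mean of 55.7% ± 9.87 (SD, n = 3). No natural site was 20 points above the highest Col library in any allele. Of the 36, 2 in suvh1-2, 1 in hdp1-1 and 5 in hdp2-1 were as far below the lowest. The share over all CpG cytosines was 0.556%, 1.30% and 1.67% in suvh1-2, hdp1-1 and hdp2-1. A site can be so far below only where all Col libraries are at 20% or more. Natural sites were chosen as methylated in Col, so the counts cannot be read against that share.

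**Figure D4:**
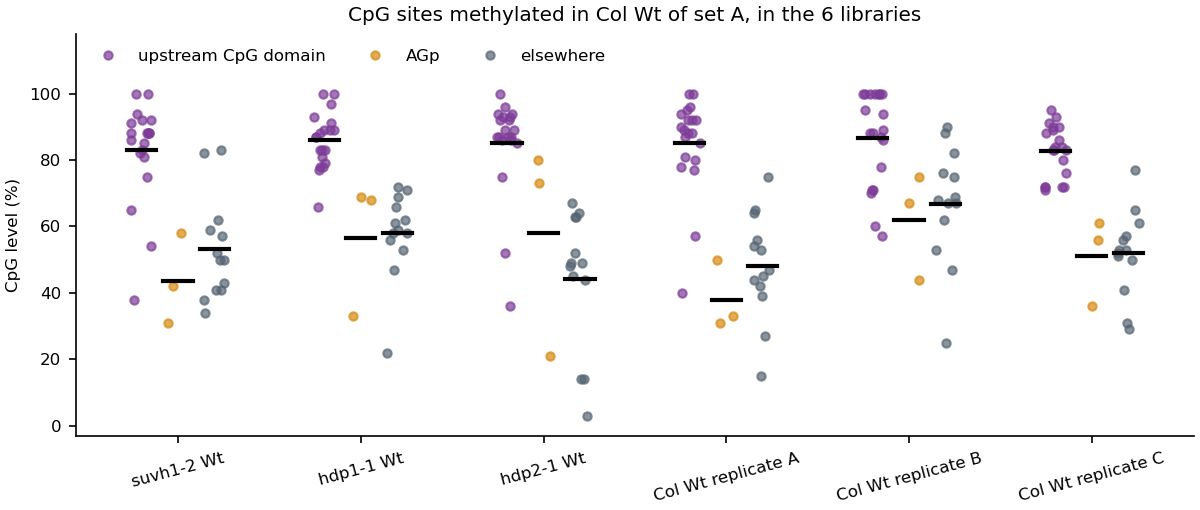
CpG level in percent (vertical axis) of the 36 natural sites in each of the 6 libraries (horizontal axis), alleles left and Col replicates right. Dots are sites, coloured by the upstream domain, AGp or elsewhere, with a slight sideways scatter, and bars are means. Upstream sites average between 82.7% and 86.7% in all 6 libraries, and sites elsewhere spread more widely.

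In the upstream domain the CpG cytosine at 10377598 was at 38% in suvh1-2 and 36% in hdp2-1, against 85%, 88% and 80% in Col. That at 10377409 was at 54% in suvh1-2, against 94%, 88% and 83%. In hdp1-1 no cytosine of the domain lay 20 points outside the Col range.

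Downstream of AGe, hdp1-1 carried CpG methylation that set B and C Col flowers lacked. The 14 CpG cytosines of the 2 windows spanning 10388602 to 10388801 averaged 45.0% in hdp1-1, 0.143% in suvh1-2 and 2.86% in hdp2-1, against 0.429%, 2.0% and 0.5% in Col. The highest site, 10388692, was at 80% in hdp1-1 and at 0% in all 3 Col libraries. With ARE//AGe the stretch was at 32.4% in hdp1-1 sMf but 0.429% in hdp1-1 rMf, and the 2 Col Wt libraries of set A, left out of the comparison, had 16.5% and 10%. Methylation there was thus neither present in each hdp1-1 library nor absent from all Col flowers. It was not particular to hdp1-1 either, since ddm1-1 Wt of set B had 24.8%, while Met1-1 Wt of set B had 0.714%. The M317 Wt libraries of set A had between 2.14% and 8.71%.

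Farther on, the 6 CpG cytosines in the window 10390502 to 10390601 were at 2.17% in hdp1-1 and 1.83% in hdp2-1, and at 38.0% in suvh1-2, against 28.2%, 73.0% and 38.8% in Col. The cytosine at 10390583 was at 4% in hdp1-1 and 3% in hdp2-1, against 57%, 85% and 67% in Col. The 4 ARE//AGe libraries of hdp1-1 and hdp2-1 had between 0% and 1.17%, and that of suvh1-2 39.8%. The Col Wt libraries of set A had 0% and 16.8%, so low levels also occurred in Col flowers outside sets B and C. Met1-1 Wt and ddm1-1 Wt of set B both had 0%, so the low level was not particular to the hdp alleles. The M317 and M318 Wt libraries of set A had between 14% and 42%. This stretch and the nearer one were singled out by their values in hdp1-1, and no test was made on them.

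**Figure D5:**
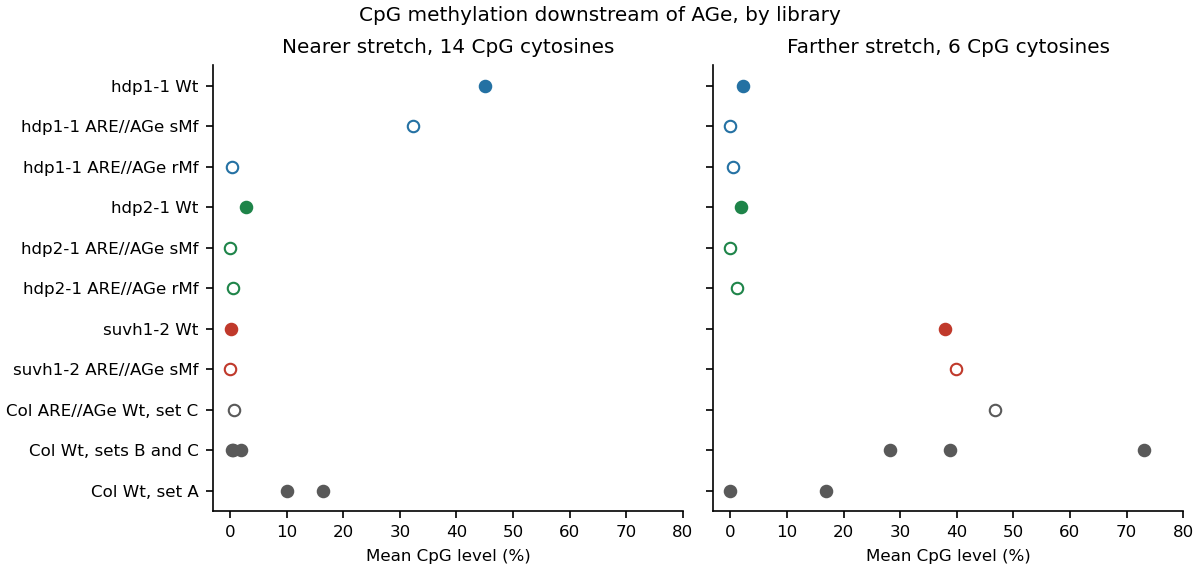
Mean CpG level in percent (horizontal axis) of the nearer stretch of 14 cytosines (left) and the farther stretch of 6 (right), with groups down the page, alleles above Col. Filled points are libraries without construct, open points ARE//AGe libraries. The nearer stretch stands at 45.0% in hdp1-1 Wt and 32.4% in its sMf library, and the farther one is at or below 2.17% in all 6 hdp libraries and at 0% in 1 Col Wt library of set A.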

How the data were processed

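Per the file headers, 1 deposited table lists 5709 cytosines by context and coordinate, with 51 columns, 1 per library. The authors deposited each value as a score in whole percent, whose sign marks the strand. The sign was removed, and the entry rc and blanks were treated as missing. Bismark, HISAT2, FastQC 0.11.9 and the build TAIR10 appear in the submitters' processing notes, without roles. The sources used here give no coverage minimum or conversion rate.

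Rows slip against the coordinates in blocks of columns. Blocks 3, 4 and 5, which hold the 6 libraries, were brought into register from the signs alone by a hidden Markov model that allows shifts of at most 40 rows and keeps rows at a posterior of 0.9 or more. The sign then matched the strand in 99.95%, 99.93% and 99.96% of compared rows, against 59.4%, 54.4% and 62.9% before. The model was fitted to these signs, so the match is not a separate check of the shifts. In a simulation built from the fitted shifts and the model's own error rate, 100%, 97.9% and 100% of kept rows were right. It shows that such shifts can be recovered, not that the fitted ones are true. The magnitudes, not used by the model, served as a check, and r between hdp2-1 and Col replicate C moved to 0.884, against 0.592 before. That was the highest value of any allele with Col. With the same Col library suvh1-2 moved to 0.644, against 0.410 before, and hdp1-1 to 0.770, against 0.521. After leaving out 68 cytosines sharing a coordinate, 4909 were analysed, each with equal weight. No 2 of the 6 libraries held identical values. Domains bridge gaps of up to 5 windows and span at least 5.

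Named sites are, per allele and context, the 5 largest gaps above and below the Col range, and named windows the 3 largest and smallest differences from the Col mean, of which the text gives a selection. The members, domains and lists were chosen with earlier results of these data known. Alternatives tried were rows as deposited, other Col sets, each Col replicate left out, zeros left out, complete cytosines, and other thresholds. Python 3.11.15, numpy 2.4.6, pandas 2.3.3 and matplotlib 3.10.9 were used.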

Additional observations from a re-analysis of the deposited data

Results flagged for a closer look

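The following values come from libraries without a construct outside the 6 that were compared, which appear above in the ranking of 16 libraries, and each exceeds the highest of the 5 Col Wt libraries of sets A, B and C. In ddm1-1 Wt of set B, AGp CHG was at 8.12%, against at most 2.51% in Col Wt, and AGp CHH at 5.30%, against at most 2.02%. In the same library AGe CHG was at 8.09%, against at most 3.71% in Col Wt, and AGe CHH at 5.47%, against at most 1.84%. In M317 Wt replicate 1 of set A, AGe CHG was at 8.35% and AGe CHH at 3.69%, against the same Col Wt maxima. These were 2 of 8 such libraries, and the differences were not tested.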

How the results depend on the processing

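Of 177 recomputed values for 21 results, 136 lay within the Col spread (1 SD), or within 1.5 times for counts, of the value above, and 41 moved. None of the differences that lay outside the Col range changed sign, while small ones inside it did, as natural CpG below. Causes were not tested unless given. All values are differences from the Col mean in percentage points, or counts of raised cytosines. With rows as deposited, which leaves rows out of register, suvh1-2 gave CHG 1.77, AGp 8.99 and natural CpG 4.96, hdp1-1 CHG 0.601 and 65 raised, and hdp2-1 CpG -0.399, natural CpG 4.78 and 33 raised. Leaving out cytosines at 0 in all 6 libraries, which raises every mean, gave CpG, CHG and CHH of 1.65, 4.83 and 5.18 in suvh1-2 and 1.92, 1.78 and 1.66 in hdp1-1, CpG -1.40 in hdp2-1, AGp 13.99 and AGe 11.75 in suvh1-2, and AGp 3.53 in hdp1-1. With Col of set C alone, CHG and CHH were 2.84 and 2.996 in suvh1-2, 1.18 and 1.06 in hdp1-1 and 0.303 and 0.112 in hdp2-1, with 272, 65 and 15 raised. With Col of sets A, B and C, suvh1-2 CHH was 2.99. Over cytosines with a level in all 6 libraries, chosen after seeing the data, suvh1-2 gave CHG 2.34, CHH 2.14 and AGp 6.36, and hdp1-1 CHH 0.610, AGp 1.40 and 23 raised. Domain windows at 20% gave AGp 11.45 and AGe 11.22 in suvh1-2 and AGp 3.24 in hdp1-1, and a gap of 10 points gave 421, 124 and 35 raised. Leaving out each Col replicate gave 7 to 11 raised in hdp2-1, the sole result moved by it. No paired analysis was possible because each allele has 1 library, whose label carries no replicate number. Depth is unknown, so levels carry no interval.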
